A study of Mus musculus with 4 samples.

Results

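The secreted Wnt antagonists described here are 9 genes, Sfrp1, Sfrp2, Sfrp4, Sfrp5, Frzb, Dkk1, Dkk2, Dkk3 and Wif1, of the 39179 genes in the deposited table. They were taken by their gene symbols. The set was chosen by its normalized counts in KO against WT fat, that is with this comparison already known, so its values are a description and carry no test. RNA was measured in epididymal white adipose tissue, the fat pad beside the epididymis of male mice, in 2 libraries of Nck2 knockout (KO) mice and 2 libraries of wild-type (WT) mice. The series' design text writes the genotypes as Nck2-/- and Nck2+/+, and the label of the KO samples reads Nck2 mutant. Nck2 encodes an adaptor protein that links phosphorylated receptors to the actin cytoskeleton. Both groups had a mixed genetic background. Age, diet, any treatment, the altered part of Nck2 and whether each library came from a separate animal are not given in the sources used here. The spread between libraries of a group may therefore be partly technical.

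Wnt proteins are secreted signals that bind Frizzled receptors together with the co-receptors LRP5 and LRP6, and in the canonical branch they keep β-catenin from being degraded. In adipose tissue Wnt signalling is known to hold preadipocytes back from becoming adipocytes. Secreted frizzled-related proteins (the Sfrp genes and Frzb, which is also called Sfrp3) carry a Frizzled-like domain and bind Wnt proteins outside the cell. WIF1 also binds Wnt proteins directly. DKK1 and DKK2 act at the co-receptors instead, and DKK3 is a divergent relative whose effect on Wnt signalling varies between cell types. Sfrp5 is known in mouse white fat as a product of adipocytes.

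The promoters of Sfrp5, which was higher in KO fat, and of Wif1 and Dkk2, which were lower, are shown because these members had wide gaps in opposite directions. Each is the RefSeq sequence of the GRCm38.p6 build from 250 bases before to 50 bases after the annotated start, in the gene's own direction. Sfrp5 is at chr19:42202203-42202502 on the minus strand, Wif1 at chr10:121033754-121034053 on the plus strand and Dkk2 at chr3:132085042-132085341 on the plus strand. The GENCODE start of Sfrp5 and of Dkk2 is the RefSeq start, while the GENCODE extent of Wif1 begins inside its window. Most of the RefSeq window of Frzb lies inside the gene as GENCODE draws it, so it is not shown. Capitals mark matches, on either strand, to the motifs that were searched.
Sfrp5: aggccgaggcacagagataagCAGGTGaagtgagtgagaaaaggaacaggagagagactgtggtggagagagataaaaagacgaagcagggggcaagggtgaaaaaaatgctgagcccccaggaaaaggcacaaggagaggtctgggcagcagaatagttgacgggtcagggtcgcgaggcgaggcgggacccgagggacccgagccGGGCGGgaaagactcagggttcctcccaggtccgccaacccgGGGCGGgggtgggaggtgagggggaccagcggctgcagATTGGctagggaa
Wif1: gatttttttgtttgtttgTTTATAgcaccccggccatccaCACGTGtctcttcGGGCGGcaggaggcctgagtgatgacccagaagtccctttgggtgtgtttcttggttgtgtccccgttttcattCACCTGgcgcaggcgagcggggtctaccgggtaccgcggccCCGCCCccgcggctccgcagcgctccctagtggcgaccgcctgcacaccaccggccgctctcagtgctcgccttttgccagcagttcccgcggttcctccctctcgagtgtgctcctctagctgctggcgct
Dkk2: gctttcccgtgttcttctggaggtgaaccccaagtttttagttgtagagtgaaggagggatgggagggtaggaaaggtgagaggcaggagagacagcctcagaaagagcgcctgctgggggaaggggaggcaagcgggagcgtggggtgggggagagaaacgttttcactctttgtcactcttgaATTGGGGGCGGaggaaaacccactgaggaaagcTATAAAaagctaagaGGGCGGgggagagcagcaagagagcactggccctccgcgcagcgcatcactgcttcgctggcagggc

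The motifs searched were the TATA box (TATAAA), the CCAAT box (CCAAT), the GC box (GGGCGG), the E-box (CANNTG), a nuclear receptor half-site (AGGTCA), the core of TCF/LEF sites (CTTTGA), the core of C/EBP sites (TTGCNNAA) and the CArG box, on both strands. No matches overlapped each other. All 3 promoters held a GC box, which 35.9% of 32544 mouse promoters of the same length held. The E-box was in the promoters of Sfrp5 and Wif1 and in 72.3% of all promoters. The CCAAT box was in those of Sfrp5 and Dkk2 and in 37.4% of all. In Dkk2 the CCAAT box, read on the opposite strand, stood directly before a GC box, so the pair appears as a single run of capitals. The letters of the TATA box were in those of Dkk2 and Wif1 and in 13.6% of all. The match began at -32 from the start in Dkk2. In Wif1 it began at -232 and was on the opposite strand. None of the 3 windows held the TCF/LEF core, the letters bound by the DNA-binding partners of β-catenin, which 16% of all promoters held. None held the nuclear receptor half-site (16.2% of all), the C/EBP core (10.8%) or the CArG box (1.64%). These matches describe letters and do not show binding. The guanine and cytosine content was 61.3% for Sfrp5, 63% for Wif1 and 57.7% for Dkk2, against a median of 53% over all promoters. RefSeq promoters were matched for 6 of the 9 members. Of the other matched members, Sfrp2 held, among these motifs, only the C/EBP core, and Dkk1 held a TATA box and 2 matches of the TCF/LEF core. Frzb held a GC box, an E-box, a nuclear receptor half-site and a TCF/LEF core. Most of the Dkk1 window, like that of Frzb, lies inside the gene as GENCODE draws it.

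The 4 libraries held between 31831904 and 37980391 reads assigned to genes. Values are the authors' normalized counts, which are reads divided by a size factor for each library. Nck2 itself was at 1076 and 947 normalized counts in KO fat, against 1279 and 1667 in WT fat, a log2 difference of -0.53 (SE 0.16) with an adjusted p of 0.051. These counts add up all exons of the gene, so they do not check the genotype labels. The share of reads from markers of several cell types also differed between the genotypes. Mature adipocyte markers, led by Fabp4, made up 4.04% and 4.12% of reads in KO libraries, against 1.81% and 1.29% in WT libraries. At an adjusted p under 0.05, 11 of 15 (73.3%) were higher in KO and 0 lower. Over all genes tested 22.4% were higher and 24.4% lower. Epididymis and male tract markers, led by Crisp1, made up 0.000326% and 0.000277% of reads in KO libraries, against 1.12% and 1.1% in WT libraries. Of these 12 markers, 9 and 6 were at 0 in the KO libraries, against 1 and 0 in the WT libraries. Lcn5, Lcn8, Lcn9, Lcn12 and Defb20 were at 0 in both KO libraries. Smooth muscle markers, led by Myh11, made up 0.0868% and 0.0989% of reads in KO libraries, against 1.67% and 2.25% in WT libraries. At the same threshold 9 of 10 (90%) were lower in KO, against 24.4% of all genes tested. Progenitor and fibroblast markers, led by Dcn, made up 0.596% and 0.434% in KO libraries, against 0.455% and 0.426% in WT libraries. The marker lists of male tract and smooth muscle thus moved with the 6 members that were lower in KO, and the adipocyte list moved with Sfrp5. Their part in the members' differences was not tested. In bulk tissue, fewer cells of a type and less RNA per cell cannot be told apart.

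Sfrp5 was the member with the highest level per kilobase of exon in KO fat. It lies on chromosome 19 (GRCm38, 42197971 to 42202252, minus strand, 3 exons). It had 10000 and 17040 normalized counts in the KO libraries, against 306 and 681 in the WT libraries. Both KO libraries were far above both WT libraries, and the lowest KO value was 14.7 times the highest WT value. The means were 13520 ± 4978 in KO and 493 ± 265 in WT (SD, n = 2 each). On the log2(normalized count + 1) scale the difference, KO minus WT, was 4.84 (SE 0.47), which is 28.5-fold higher in KO on that scale. The libraries of a group were not tight: KO replicate 2 had more than KO replicate 1, and WT replicate 2 had more than WT replicate 1. Leaving out each library in turn gave differences of 4.26 to 5.41.

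Wif1 had the widest gap of all members, in the other direction. It lies on chromosome 10 (121033960 to 121100650, plus strand, 10 exons). It had 2.81 and 20.1 normalized counts in the KO libraries, against 1200 and 1959 in the WT libraries. These rest on 3 and 18 reads in KO and on 1178 and 2106 reads in WT. Wif1 was thus plainly detected in WT fat and close to the detection limit in KO fat. The means were 11.4 ± 12.2 in KO and 1580 ± 537 in WT (SD, n = 2 each). The lowest WT value was 59.8 times the highest KO value. The log2 difference was -7.42 (SE 0.88), which is 171-fold lower in KO on that scale. It was -6.19 without KO replicate 1 and -8.65 without KO replicate 2, so the size of the fold depended on which KO library was kept.

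Frzb, known from cartilage as a Wnt-binding protein, followed the same direction with a tighter spread. It lies on chromosome 2 (80411970 to 80447625, minus strand, 6 exons). It had 13.1 and 19 normalized counts in the KO libraries, against 204 and 244 in the WT libraries. The groups were far apart relative to their own spread, with means of 16 ± 4.14 in KO and 224 ± 28.3 in WT (SD, n = 2 each). The log2 difference was -3.74 (SE 0.28), which is 13.3-fold lower in KO on that scale.

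Sfrp1 and Sfrp2, both broadly expressed Wnt-binding proteins of connective tissue, had nearly the same difference between the groups. Their KO replicates ran in opposite orders. Sfrp1 (chromosome 8, 23411502 to 23449632, plus strand, 3 exons) had 513 and 691 normalized counts in the KO libraries, against 2153 and 2114 in the WT libraries. Sfrp2 (chromosome 3, 83766321 to 83774316, plus strand, 3 exons) had 641 and 517 in the KO libraries, against 2158 and 2074 in the WT libraries. In both genes the WT libraries lay close together and every KO library was below every WT library. The log2 difference was -1.84 (SE 0.16) for Sfrp1 and -1.88 (SE 0.12) for Sfrp2. On that scale Sfrp1 was 3.58-fold and Sfrp2 3.67-fold lower in KO. The antisense gene Gm26771 overlaps exons of Sfrp2 and had 0.937 and 0 normalized counts in KO, against 13.2 and 16.7 in WT. Without strand, reads of Sfrp2 and of its antisense partner cannot be told apart, and 12% of the 50-base stretches of Sfrp2 also occur in Gm26771.

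Sfrp4, which is made by stromal cells of several tissues, was the other SFRP member with both KO libraries above both WT libraries, but it did not pass the threshold. It lies on chromosome 13 (19623104 to 19632994, plus strand, 5 exons). It had 632 and 251 normalized counts in the KO libraries, against 223 and 171 in the WT libraries. KO replicate 1 stood well above the other 3 libraries, and KO replicate 2 was only 1.13 times the highest WT value. The log2 difference was 1.02 (SE 0.48). It was 0.36 without KO replicate 1 and 1.69 without KO replicate 2. The summed mesothelium markers, led by Krt19 and Upk3b, were also uneven in KO, with 0.0743% of reads in KO replicate 1 and 0.0136% in KO replicate 2, against 0.0444% and 0.0696% in the WT libraries. Krt19, the most abundant of them in WT, fell by 3.28 on the log2 scale. Without it, a sum taken after the values were seen, the other 7 made up 0.0673% and 0.0125% of reads in KO, against 0.0186% and 0.0321% in WT. KO replicate 1 was the highest of the 4 libraries with and without Krt19, as it was for Sfrp4. KO replicate 2 was the lowest in both sums, whereas for Sfrp4 it was above both WT libraries. In the fit over all genes, 0 of the 8 markers were higher in KO and 1 (12.5%) was lower. Over all genes tested the shares were 22.4% and 24.4%. None of the markers was at 0 in any library, and their part in the Sfrp4 values was not tested.

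Of the 3 Dickkopf genes, the 2 with enough reads to enter the fit, Dkk2 and Dkk3, were lower in KO. Dkk2 (chromosome 3, 132085292 to 132180304, plus strand, 4 exons) had 22.5 and 88.1 normalized counts in the KO libraries, against 340 and 322 in the WT libraries. The WT libraries were alike while the KO libraries differed widely, and the lowest WT value was 3.65 times the highest KO value. The log2 difference was -2.86 (SE 0.67), with -1.90 without KO replicate 1 and -3.82 without KO replicate 2. Dkk3 (chromosome 7, 112116017 to 112159057, minus strand, 8 exons) had 250 and 154 normalized counts in the KO libraries, against 463 and 548 in the WT libraries. Its groups were apart by the least of the 6 lower members, with a lowest WT value 1.85 times the highest KO value and a log2 difference of -1.35 (SE 0.27). Dkk1 (chromosome 19, 30545863 to 30549665, minus strand, 4 exons) was at the detection limit, with 2 and 2 reads in the KO libraries, against 4 and 0 in the WT libraries. A count of 0 allows up to 3 reads, so no difference in Dkk1 was detectable at this depth.

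**Figure D1:**
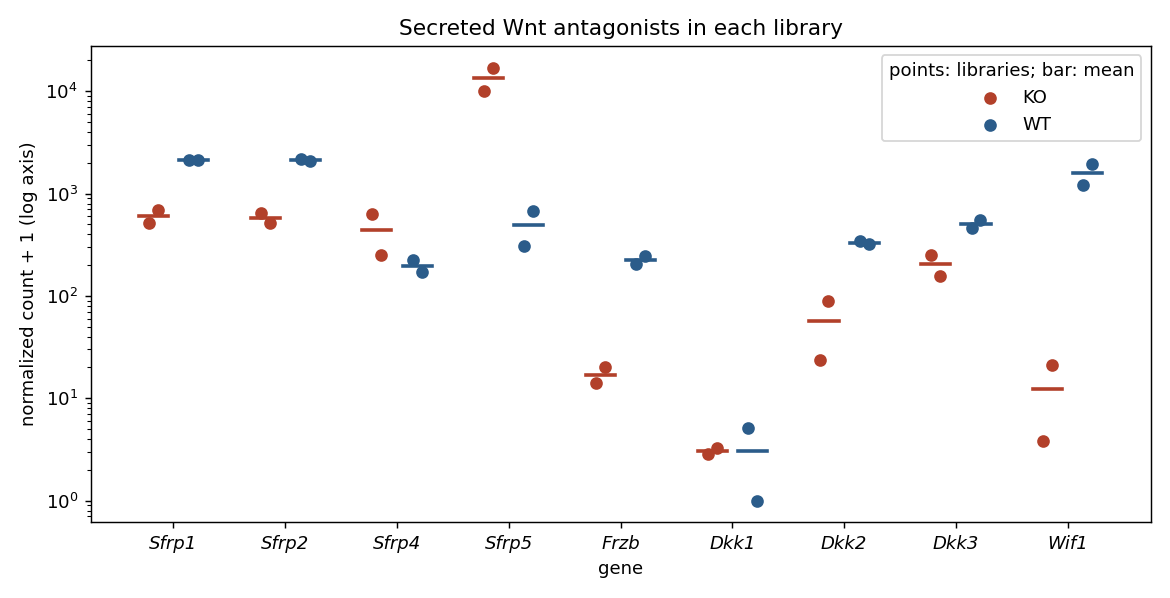
Normalized counts plus 1 of the 9 members on a log axis, with each point a library, KO left of WT for each gene, and the bar the group mean (n = 2 each). Sfrp5 is the gene with its KO points at 10000 and 17040 and its WT points at 306 and 681, and Wif1 has its KO points at 2.81 and 20.1 and its WT points at 1200 and 1959.

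Of the 9 members, 8 had a mean of 10 or more and entered the fit over 16710 genes. At an adjusted p under 0.05, 1 member (Sfrp5) was higher in KO, where 22.4% of all genes tested were higher. In the same fit 6 members (Sfrp1, Sfrp2, Frzb, Dkk2, Dkk3 and Wif1) were lower in KO, where 24.4% of all genes tested were lower. Both KO libraries were above both WT libraries in 2 members, as in 38.9% of all genes tested, and below both in 6 members, as in 40.6%. Since this comparison was used to choose the members, nothing is read from these counts. Dkk2, with its difference of -2.86, was the member just inside the threshold, and Sfrp4, with 1.02, the member just outside. The median difference of the 8 tested members was -1.86, against -0.01 over all genes tested. The lower count was 2 (Sfrp2 and Frzb) without WT replicate 1 and 0 without WT replicate 2, while the differences of the 6 lay between -8.65 and -1.01 whichever library was left out. The authors' deposited table gave log2 fold changes of 4.50 (SE 0.63) for Sfrp5, -5.95 (SE 0.98) for Wif1 and 1.13 (SE 0.46) for Sfrp4. These come from the authors' own fit and are not differences of log2(normalized count + 1), so their sizes are not directly comparable. For Dkk1 the authors' deposited table gave 0.01 (SE 1.35).

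Levels of different genes were compared per kilobase of annotated exon. In KO fat Sfrp5 stood alone at the top, with 5263 and 8968 normalized counts per kilobase, against 161 and 358 in WT fat. Sfrp2 came next in KO with 298 and 240 per kilobase, and it was the leading member in WT with 1002 and 963. Below Sfrp2 the KO order was Sfrp1, Sfrp4, Dkk3, Dkk2, Frzb, Wif1 and Dkk1. Within it, the ranges of Sfrp1 and Sfrp4, of Sfrp4 and Dkk3, and of Frzb and Wif1 overlapped. The WT order was Sfrp2, Wif1, Sfrp1, Sfrp5, Dkk3, Dkk2, Frzb, Sfrp4 and Dkk1, and among neighbours only Sfrp5 and Dkk3 overlapped. Wif1 took place 8 in KO and place 2 in WT (place 3 in WT per longest coding length), while Sfrp1, Dkk3, Dkk2, Frzb and Dkk1 took the same place in both groups. Wif1 and Sfrp1 were nearly level in WT, since the lowest Wif1 value was 495 and the highest Sfrp1 value 492 per kilobase.

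The members' summed level per kilobase turned on Sfrp5 in KO fat. The sum over all 9 was 5916 and 9511 normalized counts per kilobase in KO, against 2498 and 2979 in WT. Without Sfrp5 the sum was 653 and 543 in KO, against 2337 and 2620 in WT, so the direction of the sum depended on this single gene. Sfrp5 made up 89% and 94.3% of the sum in the KO libraries, against 6.44% and 12% in the WT libraries. Sfrp2 made up 5.03% and 2.52% in KO, against 40.1% and 32.3% in WT. Wif1 made up 0.0196% and 0.087% in KO, against 19.8% and 27.1% in WT. The WT mixture was thus spread over Sfrp2, Wif1 and Sfrp1, and the KO mixture was nearly all Sfrp5 transcript. The 3 Dickkopf genes summed to 81.3 and 70.6 per kilobase in KO, against 231 and 250 in WT. Most of these sums was Dkk3, the divergent relative, with 74.5 and 45.8 in KO, against 138 and 163 in WT. The SFRP genes without Sfrp5 summed to 570 and 464 in KO, against 1611 and 1563 in WT. These are sums of transcript levels and say nothing of protein or of how strongly each protein acts.

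**Figure D2:**
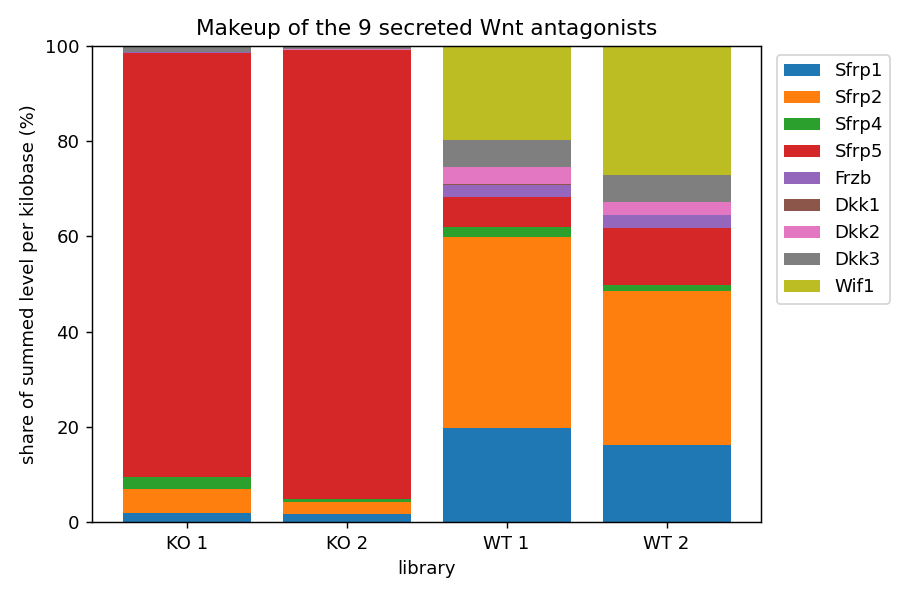
Share, in percent, of each member in the summed normalized count per kilobase of the 9 members, with a stacked bar for each library and the KO libraries left of the WT libraries. Sfrp5 fills 89% and 94.3% of the KO bars, against 6.44% and 12% of the WT bars.

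Because marker lists moved with the genotype, the members were also expressed relative to them, by subtracting the mean log2 level of a list in each library. Relative to the mature adipocyte markers, Sfrp5 differed by 3.33 (log2, KO minus WT), and relative to the progenitor and fibroblast markers by 4.46. Wif1 differed by -8.92 relative to the adipocyte markers and by -7.79 relative to the progenitor and fibroblast markers. Sfrp4 changed sign between scales, with -0.48 relative to the adipocyte markers and 0.65 relative to the progenitor and fibroblast markers. Both lists were higher in KO on average, by 1.5 for the adipocyte and 0.37 for the progenitor and fibroblast markers (log2), so a member that was lower in KO could only become lower still. The mean log2 level of the smooth muscle list differed by -5.02 and that of the male tract list by -7.13, and members were not scaled to these lists. Of the members, only Wif1, at -7.42, had a difference below both means. The median of the 9 tested male tract markers was -8.71, which lies below Wif1. The part of these markers in the members' differences was not tested.

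**Figure D3:**
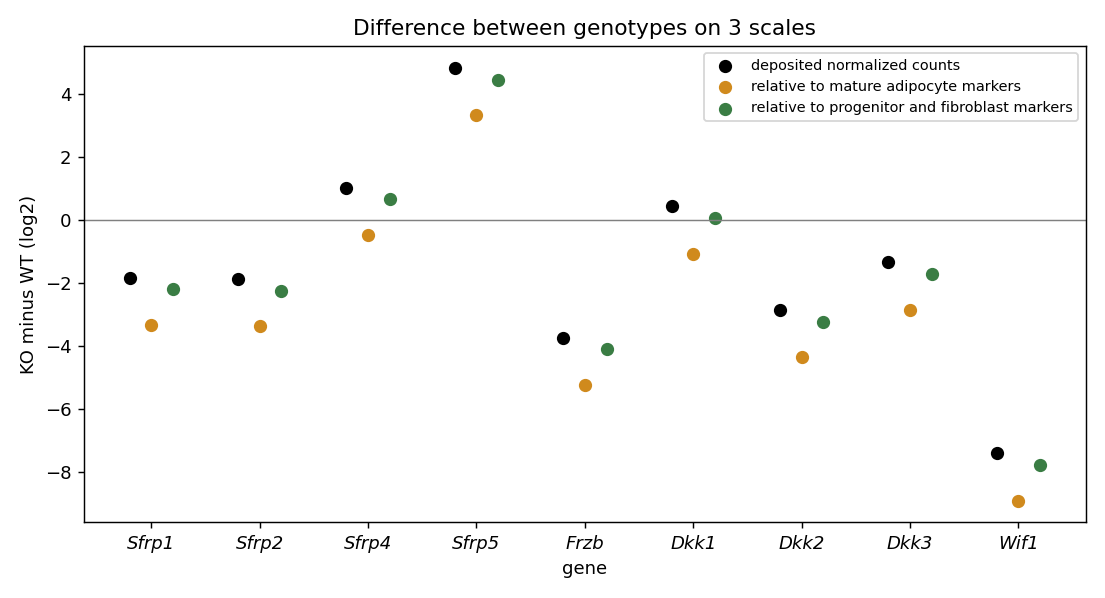
Difference KO minus WT in log2 units for each member on the deposited scale and relative to each of 2 marker lists, with a point for each scale. Sfrp5 lies above 0 on all 3 scales, and Sfrp4 and Dkk1 lie on both sides of 0. Both marker lists were higher in KO, which moves every member down.

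The genes whose profile over the 4 libraries was most like a member's were found by a search of the 14031 genes that averaged at least 50 normalized counts, using the distance between centred log2 values. Sfrp5 had the most isolated profile, with 0 genes within a distance of 0.5. Its nearest were Gm5627 at 0.56, Lctl at 0.57 and Cdsn at 0.64. Lctl had 1283 and 1494 normalized counts in KO, against 34.6 and 53 in WT. Wif1 had 1 gene within 0.5, Car14 at 0.40, a carbonic anhydrase gene, followed by Tenm2 at 0.51 and Paqr5 at 0.65. Car14 had 0 and 5.58 normalized counts in KO, against 456 and 561 in WT. Dkk2 had 5 genes within 0.5, led by Dok7 at 0.13, Car12 at 0.14 and Tnnt1 at 0.31, which shared its high value in KO replicate 2. Sfrp4 had 12, led by H2-Q1 at 0.34, Slc16a4 at 0.40 and Btnl2 at 0.41, and H2-Q1 belongs to a family of near-identical genes whose reads may be split. The other profiles were common: Frzb had 63 genes within 0.5, Sfrp1 had 189, Sfrp2 had 261 and Dkk3 had 263. The nearest were Camk4, Myom1 and Sorbs2 for Frzb, Crispld2, Hlf and Slc22a21 for Sfrp1, Dnajc10, Hunk and Slc6a2 for Sfrp2, and Shank1, Tmem255a and Car11 for Dkk3. With 4 libraries in 2 groups, such closeness is a description only.

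The rest of the Wnt pathway was followed in 6 lists that together held 91 genes. Of the 78 tested, 12 were higher in KO (15.4%, against 22.4% of all genes), 26 were lower (33.3%, against 24.4%) and 40 did not pass, with a median difference of -0.09. Without WT replicate 1 the counts were 5 higher and 16 lower, and without WT replicate 2 they were 1 and 12. Igfbp4, Fzd6, Ptk7, Csnk1e, Dvl2, Wisp1 and Twist1 lost their calls without WT replicate 1. Without WT replicate 2 the same 7 genes and also Fzd4, Lef1, Dvl3, Ccnd1 and Cd44 lost theirs. Cd44 also lost its call without KO replicate 1, and Dvl2 without KO replicate 2. Values of named genes that follow are normalized counts, and adjusted p-values are those of limma. In the counts of each list, rose and fell mean a difference at an adjusted p under 0.05.

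Among the other extracellular inhibitors and Dickkopf co-receptors, 2 of 8 tested genes rose and 4 fell, with a median of -1.53. That was 25% and 50%, against 22.4% and 24.4% of all genes tested. Sost, which encodes the LRP-binding inhibitor sclerostin, fell to 1.87 and 3.35 in KO, against 5143 and 6369 in WT (log2 difference -10.66, SE 0.27, adjusted p 0.00052). Sostdc1, its close relative, was at 0 in both KO libraries, against 141 and 121 in WT, at least 85.6-fold lower when 3 reads are allowed over the KO group (adjusted p 0.00093). Notum, an enzyme that removes the lipid from Wnt proteins, was also at 0 in KO, against 45.8 and 46.5 in WT, at least 30.2-fold lower (adjusted p 0.0019). The opposite direction was seen in Igfbp4, a binding protein of insulin-like growth factors that can also block Wnt signalling, with 25717 and 29759 in KO, against 12316 and 11052 in WT (1.25, SE 0.12, adjusted p 0.003). Kremen1, a receptor that works with DKK1 and DKK2, had 2046 and 1808 in KO, against 1605 and 1614 in WT, and did not pass. Dkkl1, a Dickkopf-like gene, fell by 3.32 (SE 0.48), and Dkk4 was at 0 in all libraries.

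Among the Wnt ligands and their secretion factors, 2 of 15 tested genes rose and 4 fell, with a median of -0.03. Wnt4 fell to 68.4 and 58 in KO, against 495 and 540 in WT (-3.02, SE 0.16, adjusted p 0.00093). Wnt6 fell to 6.56 and 6.69 in KO, against 165 and 177 in WT (-4.49, SE 0.25, adjusted p 0.001). Wnt10a was at 0 in KO, against 61.1 and 50.2 in WT, at least 36.4-fold lower (adjusted p 0.0017). Wnt11, known for signalling that does not use β-catenin, went the other way with 483 and 497 in KO, against 48.9 and 62.3 in WT (3.13, SE 0.18, adjusted p 0.001). Of the 15 tested, 13.3% were higher in KO and 26.7% lower, against 22.4% and 24.4% of all genes tested.

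Among the receptors and co-receptors, 2 of 16 tested genes rose and 7 fell, with a median of -0.38. The shares were 12.5% and 43.8%, against 22.4% and 24.4% of all genes tested. Fzd4 rose, with 15976 and 18465 in KO, against 7140 and 5676 in WT (1.43, SE 0.15, adjusted p 0.0035). Fzd9 fell to 6.56 and 5.58 in KO, against 54 and 67.9 in WT (-3.13, SE 0.32, adjusted p 0.0034). Fzd6 and the pseudokinase Ptk7 fell by less, with -0.69 (SE 0.09) and -1.33 (SE 0.17).

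The next list held the R-spondin genes, their receptors and the ubiquitin ligases they act on. R-spondins and their receptors amplify Wnt signalling by sparing Frizzled receptors from removal. The ubiquitin ligases carry out that removal and so dampen the signal. Of 8 tested, 0 rose and 4 (50%) fell, against 22.4% and 24.4% of all genes tested, with a median of -3.46. Lgr5, an R-spondin receptor, fell to 2.81 and 1.12 in KO, against 1253 and 1517 in WT (-8.92, SE 0.36, adjusted p 0.00067). The ligand Rspo2 fell to 3.75 and 2.23 in KO, against 820 and 1039 in WT (-7.88, SE 0.30, adjusted p 0.00064). Rspo3 and the ubiquitin ligase gene Rnf43 fell by 4.56 and 5.86 on the log2 scale. Lgr5 and Rspo2 were near 0 in KO fat, as Sost was. The receptor gene Lgr4 had 2353 and 3085 in KO, against 2655 and 2048 in WT, and did not pass. The male tract and smooth muscle markers moved with the pathway genes that fell, and their part in these results was not tested.

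Among the cytoplasmic and nuclear components, 3 of 21 rose and 5 fell, with a median of 0.04. These were 14.3% and 23.8%, against 22.4% and 24.4% of all genes tested. Lef1, a DNA-binding partner of β-catenin, fell to 17.8 and 22.3 in KO, against 154 and 174 in WT (-2.97, SE 0.24, adjusted p 0.002). The shifts of the relay protein genes Dvl3 (-0.89) and Dvl2 (-0.54) and of the kinase gene Csnk1e (0.44) were small. Among genes often read as Wnt targets, 3 of 10 tested (30%) rose and 2 (20%) fell, with a median of 0.32. Ccnd1, a cyclin, fell to 1393 and 1081 in KO, against 6308 and 5551 in WT (-2.27, SE 0.15, adjusted p 0.0014). Wisp1 fell by 3.13, while Twist1 (0.91) and Cd44 (0.96) rose. Axin2, the target most often used as a readout of the canonical branch, had 1831 and 2125 in KO, against 1630 and 805 in WT, and did not pass. WT replicate 2 was well below the other 3 libraries.

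**Figure D4:**
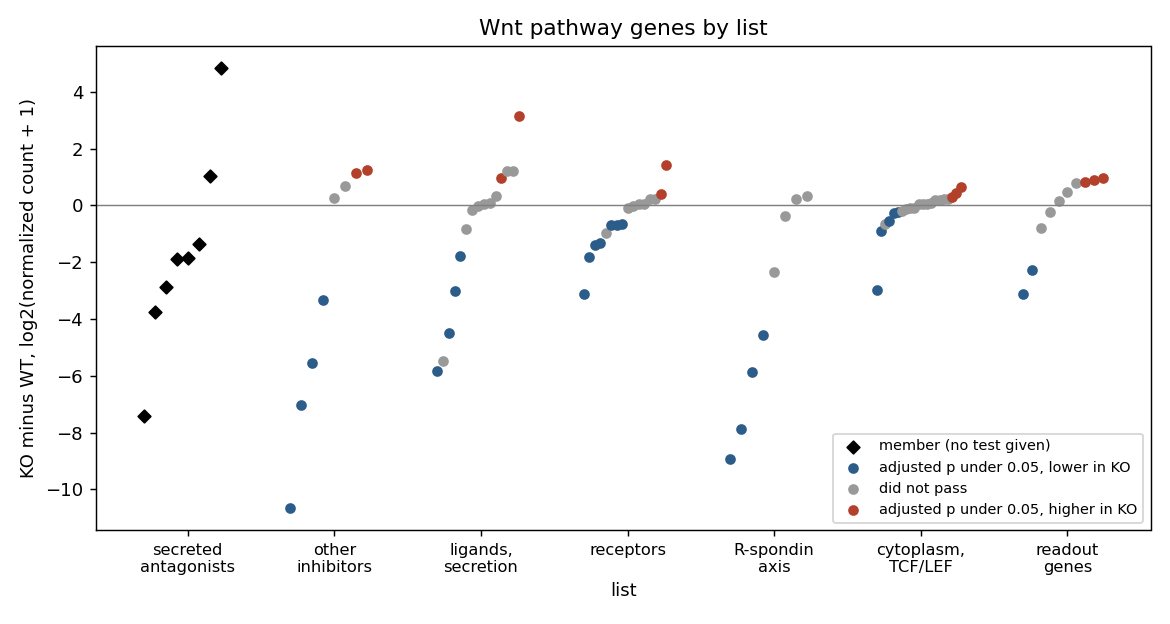
Difference of KO from WT, in log2 of the normalized count plus 1, for the genes that entered the fit, among the secreted antagonists (diamonds, 8 members, given without a test) and in the 6 pathway lists (circles, coloured by the adjusted p and direction). The R-spondin list reaches -8.92 and has no gene that was higher in KO at an adjusted p under 0.05. Both this list and the readout genes lie on both sides of 0.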

How the data were processed

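Polyadenylated RNA of 4 libraries (2 KO, 2 WT) was sequenced with single reads of 50 cycles from a TruSeq kit that does not mark strand, per the labels' protocols. The submitters' processing notes name GRCm38, DESeq2 1.4.5, HTSeq 0.5.3, TopHat2 2.0.10 and CASAVA 1.8. No source used here gives the strand setting. The authors deposited a normalized signal per gene, the count of reads divided by a size factor. The authors also deposited log2 fold changes with their standard errors, and p-values, in a comparison table. Multiplying each column by its size factor gave whole reads for 100% of values within a tolerance of 0.01, with size factors of 1.0673 and 0.8962 (KO) and 0.9815 and 1.0748 (WT). Replicates differed by more than sampling noise, and their chi-square over degrees of freedom was 34.7 in KO and 49 in WT.

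Genes with a mean of 10 or more were fitted with limma 3.58.1 (R 4.3.3) on log2(normalized count + 1), which understates changes of low genes, with a Benjamini-Hochberg adjustment over 16710 genes at 0.05. An exact permutation test of 2 against 2 libraries cannot give a p below 0.333. Alternatives were other pseudocounts, filters and scalings, a replicate block, robust moderation, DESeq2 1.42.0 or edgeR 4.0.16 with recovered reads, marker scalings and each library left out. Lengths came from GENCODE vM21.

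The members and lists were chosen with earlier results of these data known. The named genes are the 9 members, Nck2, up to 4 genes of each pathway list by smallest p, the 3 nearest profiles of each member with a mean of 50 or more, and up to 3 genes of each marker list by mean level. Dkkl1, Dkk4, Kremen1, Lgr4, Axin2 and the male tract markers at 0 were named after their values were seen. Floors for counts of 0 cover counting error only, since PCR copies cannot be told from separate molecules.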

Additional observations from a re-analysis of the deposited data

How the results depend on the processing

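In the fit over all genes, 3735 were higher and 4074 lower in KO. edgeR gave 3503 and 4070, DESeq2 3529 and 3931, and the replicate block 2737 and 3339. The replicate numbers did not pair the libraries (the correlation of same-numbered deviations was -0.009). Under the block the members' calls were as before, while 9 pathway genes were higher and 21 lower, against 12 and 26 without it. Dvl2 was among the pathway genes that lost their call. With a library left out, 524 to 2846 genes were higher and 1061 to 3434 lower, 1 to 11 pathway genes were higher and 12 to 26 lower, and 1 to 2 members were higher and 0 to 6 lower. Such a fit has fewer residual degrees of freedom, and its lone library is assumed to vary like the other group. DESeq2 placed 2 members (Sfrp5 and Sfrp4) past the threshold upward, and the cause was not tested. Of 131 alternative values of the members' differences, 117 moved by less than the spread between replicates, 14 moved further and 0 reversed a called direction. The 14 larger moves were nearly all under marker scaling. Much of this count was fixed in advance. The filters, robust moderation and the replicate block cannot change a difference, and leaving out a library cannot move it beyond that spread. The 117 are therefore no measure of robustness. The share of Sfrp5 in the KO libraries was 91.6% on average per exon length and 87% per longest coding length, an alternative chosen after the data were seen. Per longest coding length Wif1 was at place 3 in WT, against 2 per exon length, and at place 8 in KO by both.

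Depth limited Dkk1, and the KO values of Wif1 and Frzb rest on few reads.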
